A study of Mus musculus with 4 samples.

Results

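The HoxD cluster is a row of 9 homeobox genes, Hoxd1, Hoxd3, Hoxd4, Hoxd8, Hoxd9, Hoxd10, Hoxd11, Hoxd12 and Hoxd13. They were taken by symbol from the 31053 features counted in single cells of the newborn mouse oviduct and uterus. The symbol Hoxd4 stands on 2 identifiers, ENSMUSG00000101174 and ENSMUSG00000115956, so that the 9 symbols are 10 features. Their counts of UMIs (unique molecular identifiers, with 1 for every RNA molecule captured) were summed per library and cell class. Wild-type, untreated CD1 (ICR) mice were used at postnatal day 3, with 2 libraries of the oviduct and 2 of the uterus. Replicates were pools of 3 and of 4 neonates, and oviducts and uteri came from the same neonates; the labels do not say which library held which pool. All groups share strain, genotype, age and enzyme digestion (Dispase II, Collagenase B and DNase I), and no transgene or Cre is named. With 2 pools per organ, the organ tests below rest on the spread between pools of neonates, with its estimate shared over genes. The tests between classes have a term for each library, so they rest on the spread of classes within libraries.

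Hox genes encode DNA-binding proteins that assign position along the body axis and along the limbs, the gut and the urogenital tract. Within a cluster their order on the chromosome follows their order of use: genes at the 3′ end act early and anteriorly, and genes at the 5′ end (Hoxd9 to Hoxd13) act late and posteriorly. The oviduct, the uterus, the cervix and the upper vagina form from 1 pair of embryonic ducts, the Müllerian ducts, and in this tract the posterior Hox genes of the HoxA cluster are known for their nested domains. HoxA genes 9, 10, 11 and 13 are the textbook case. The comparison asks at which level, and in which cell classes, the HoxD genes are present in the oviduct and the uterus of the newborn.

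The cells were sorted into classes by marker genes after clustering, with all Hox genes left out of the clustering, so that no HoxD count chose a class. The libraries held 5716 to 7808 called barcodes, with a median of 9608 to 11890.5 UMIs per barcode, and 3872 to 6488 cells per library were kept. The filters removed 11.4% and 13.8% of the oviduct barcodes and 29.0% and 28.7% of the uterine ones. Libraries shared between 8 and 15 cell barcodes per pair. Mesenchyme, the loose stroma of the tract, was the largest class, with 4108 and 3146 oviduct cells and 2237 and 2231 uterine cells. Smooth muscle had 570 to 687 cells per library, pericytes 127 to 187, blood endothelium 144 to 196, epithelium 207 and 349 in the oviduct against 79 and 124 in the uterus, and mesothelium (the outer covering) 507 and 541 against 80 and 62. The labels name mesenchymal and epithelial cells, and both were present beside the other classes. A marker score on each cell alone gave the same class for 91.2% of the mesenchymal cells and 99.1% of the blood endothelial cells, but for 69.9% of the smooth muscle cells. Myeloid cells (7 to 34 per library) and erythroid cells (11 and 12 in the oviduct, 83 and 451 in the uterus) were too few in at least 1 library to be compared.

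The cluster lies on the plus strand of mouse chromosome 2, chr2:74668310-74765142 in GRCm38 (GENCODE M21), a span of 96.8 kb with Hoxd13 at its start and Hoxd1 at its end. Hoxd11 (chr2:74679557-74687016) and Hoxd8 (chr2:74704615-74707933) are the members the comparison turns on, because the organ difference was largest among the well-counted genes for Hoxd11 and smallest for Hoxd8. The identifier ENSMUSG00000115956 is not in this annotation, so its position was not used here. In this annotation Hoxd3 and Hoxd4 share exons with each other and with the counted gene Gm28230, while Hoxd3, Hoxd4 and Hoxd8 lie opposite the antisense gene Hoxd3os1. Whether the counting used strand is not stated in the sources used here. For this reason the values of Hoxd3 and the first Hoxd4 feature are uncertain, as their reads could be split between features. For Hoxd8 only the antisense overlap applies. Hoxd10 and Hoxd11 share exons on the same strand with Gm28309, which is not among the counted genes. Whether its reads entered the counts of these genes was not tested. The second Hoxd4 feature was not placed, so its overlaps are not known and its values stay uncertain.

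Promoter sequences are shown for the genes at both ends of that range, and for Hoxd10, whose organ difference came next to that of Hoxd11 among them. They were copied from RefSeq (GRCm38.p6) as the 250 bases before each transcript start, on the plus strand and from 5′ to 3′. Capitals mark matches, on either strand, to any of 4 motifs. The first is TTTATG, a site that posterior Hox proteins bind. The second, TGATTNAT, is a joint site of Hox and Pbx proteins, with N for any base. The third is the nuclear receptor half-site, spelled AGGTCA in this search. The last one searched was the TATA box, whose letters were TATAAA. None of the windows printed here matched more than 1 of the motifs, so no matches overlap. Hoxd11 has a pair of annotated starts, and both are given.
Hoxd11, first start, chr2:74679308-74679557: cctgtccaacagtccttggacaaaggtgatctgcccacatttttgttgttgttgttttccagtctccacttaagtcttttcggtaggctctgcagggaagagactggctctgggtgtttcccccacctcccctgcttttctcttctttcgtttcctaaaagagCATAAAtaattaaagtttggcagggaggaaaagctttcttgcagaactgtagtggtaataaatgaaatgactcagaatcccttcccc
Hoxd11, second start, chr2:74682073-74682322: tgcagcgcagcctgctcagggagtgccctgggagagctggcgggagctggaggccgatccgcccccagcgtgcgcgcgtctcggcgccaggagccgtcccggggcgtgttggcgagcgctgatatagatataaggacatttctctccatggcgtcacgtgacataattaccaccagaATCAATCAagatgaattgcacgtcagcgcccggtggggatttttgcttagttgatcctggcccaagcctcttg
Hoxd10, chr2:74691641-74691890: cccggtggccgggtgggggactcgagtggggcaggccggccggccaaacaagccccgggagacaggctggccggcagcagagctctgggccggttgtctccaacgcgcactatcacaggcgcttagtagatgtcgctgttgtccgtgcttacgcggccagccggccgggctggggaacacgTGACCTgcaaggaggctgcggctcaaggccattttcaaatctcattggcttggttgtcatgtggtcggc
Hoxd8, chr2:74704365-74704614: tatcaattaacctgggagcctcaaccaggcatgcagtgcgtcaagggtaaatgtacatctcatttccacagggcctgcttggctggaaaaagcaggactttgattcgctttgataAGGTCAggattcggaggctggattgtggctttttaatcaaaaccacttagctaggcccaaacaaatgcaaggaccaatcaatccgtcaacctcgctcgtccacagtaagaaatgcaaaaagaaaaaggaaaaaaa
The first Hoxd11 window held 1 match to TTTATG and the second 1 match to TGATTNAT. Hoxd10 and Hoxd8 each held 1 match to AGGTCA. Of 32851 mouse promoter windows of the same length, 10.8% held TTTATG, 2.82% TGATTNAT, 14.0% AGGTCA and 12.4% TATAAA. The windows differed in base composition: the first Hoxd11 window had 44.8% G and C and 2 CpG, the second 60.4% and 20 CpG, Hoxd10 65.6% and 20 CpG, and Hoxd8 44.4% and 6 CpG, against medians of 52.4% and 6 CpG. A match is a description of these letters and not a measured site.

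In mesenchyme, all 10 HoxD features were tested and all 10 were higher in the uterus at an adjusted p under 0.05. Of all genes tested in this class, 20.4% were higher in the uterus by the same rule. Hoxd1, both Hoxd4 features, Hoxd12 and Hoxd13 passed the filter on low counts only through the uterus, where they were higher. Their calls therefore add no support to the count of 10. The whole cluster summed to 47.6 ± 1.53 CPM in oviduct mesenchyme and 595 ± 33.5 CPM in uterine mesenchyme, where CPM is the count per 1000000 UMIs of the class (mean ± SD over n = 2 libraries, here and for all means below). One UMI is 1 molecule, whatever the gene's length, so that levels of different genes on this scale can be set side by side. Log2 differences are given as oviduct minus uterus with their standard error, so that a negative value is a higher level in the uterus. This standard error was computed back from the test, as the size of the difference over the square root of its F statistic. The median difference over the members was -3.26 and over all genes tested 0.00. Where libraries are said to overlap or not, this describes 2 values against 2. The share of all genes without overlap is not given here.

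Hoxd11, which encodes a posterior homeobox protein of paralogue group 11, had 8.45 and 11.4 CPM in the oviduct libraries and 337 and 306 CPM in the uterine ones. Both uterine libraries stood far above both oviduct libraries. The log2 difference was -5.06 ± 0.13 (edgeR quasi-likelihood test, adjusted p = 4.7e-10), and the ratio of the means was 32.5-fold.
Hoxd10, its neighbour of group 10, had 5.69 and 5.55 CPM in the oviduct and 113 and 111 CPM in the uterus. The replicates of each organ nearly coincided, and the log2 difference was -4.34 ± 0.089 (adjusted p = 1.74e-10).
Hoxd9, the most 3′ of the posterior genes, had 17.5 and 15.7 CPM against 116 and 106 CPM, with a log2 difference of -2.77 ± 0.091 (adjusted p = 1.74e-09). It was the most abundant HoxD gene in oviduct mesenchyme, while Hoxd11 was the most abundant in uterine mesenchyme.
Hoxd8, a gene of the middle of the cluster, had 13.4 and 14.5 CPM against 37.2 and 35.2 CPM. Its log2 difference of -1.41 ± 0.082 (adjusted p = 1.51e-07) was the smallest of the members in this class.

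The 2 most 5′ genes were near 0 in the oviduct. Hoxd12 had 0 and 1 UMI in the oviduct against 69 and 40 in the uterus, a ratio of 148 with a counting interval of 26.0 to 5885. Hoxd13, which ends the cluster and is known from the limbs and the external genitalia, had 0 and 1 UMI against 18 and 18, a ratio of 48.8 with an interval of 8.21 to 1979. These intervals (exact, 95%) cover counting error only. With 1 oviduct library left out the fitted log2 difference was -5.78 (without oviduct library 1) and -9.05 (without oviduct library 2, which left 0 UMIs) for Hoxd12, and -4.18 and -7.45 for Hoxd13. Both genes were called (adjusted p = 1.31e-05 and 0.000182), but their uterine means, 1.58 ± 0.69 and 0.515 ± 0.035 CPM, were far below that of Hoxd11 (322 ± 22 CPM). The uterine libraries did not overlap the oviduct libraries in either gene.

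The 3′ genes were low in both organs. Hoxd3 had 0.927 and 0.903 CPM in the oviduct and 8.70 and 6.52 CPM in the uterus (log2 difference -3.07 ± 0.19, adjusted p = 2.85e-07). Hoxd4, by its first identifier, had 11 and 9 UMIs against 50 and 84 (-3.18 ± 0.34). By its second identifier it had 12 and 10 UMIs against 86 and 77 (-3.34 ± 0.28). Hoxd1, at the 3′ end, had 5 and 3 UMIs against 14 and 17 (-2.38 ± 0.48, adjusted p = 0.00213). For all of these genes both uterine libraries were above both oviduct libraries.

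**Figure D1:**
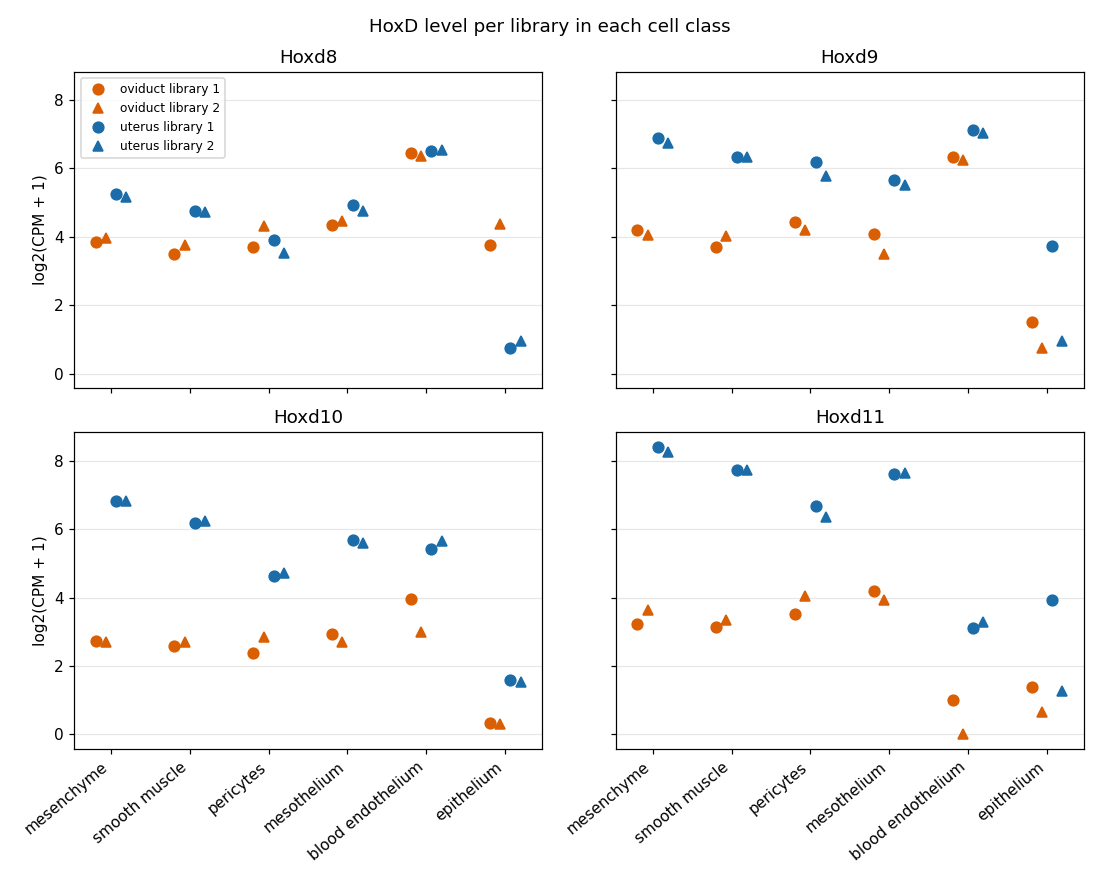
Level of Hoxd8, Hoxd9, Hoxd10 and Hoxd11 in each cell class, as log2(CPM + 1) with 1 point per library (oviduct in orange, uterus in blue; circles for library 1, triangles for library 2). In mesenchyme and smooth muscle the blue points stand above the orange ones for all 4 genes, while in blood endothelium Hoxd8 is at 80.8 to 91.4 CPM in all 4 libraries, and in epithelium Hoxd8 is higher in the oviduct.

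In smooth muscle, the contractile wall, the HoxD genes were also higher in the uterus. Of 7 HoxD features tested all 7 were higher in the uterus, where 15.3% of all genes tested in smooth muscle were. Hoxd3 and both Hoxd4 features passed the filter on low counts only through the uterus, so their calls add no support to that count. The summed level was 40.1 ± 4.88 CPM in oviduct smooth muscle and 399 ± 1.90 CPM in uterine smooth muscle. Hoxd11 had 7.72 and 9.17 CPM against 212 and 209 CPM (log2 difference -4.68 ± 0.11, adjusted p = 5.82e-13). Hoxd10 had 4.98 and 5.50 CPM against 70.7 and 73.6 CPM (-3.81 ± 0.13). Hoxd9 had 11.99 and 15.2 CPM against 80.0 and 79.7 CPM (-2.59 ± 0.12), and Hoxd8 had 10.4 and 12.7 CPM against 26.1 and 25.6 CPM (-1.20 ± 0.14). No uterine library overlapped an oviduct library for any of these 4 genes.
Hoxd3 had 14 and 5 UMIs in the oviduct against 62 and 52 in the uterus (-2.40 ± 0.34, and -3.06 without oviduct library 1). The first Hoxd4 identifier had 1 and 2 UMIs against 15 and 17, a ratio of 9.28 with a counting interval of 2.90 to 47.4; the fitted log2 difference was -2.52 without oviduct library 1 and -3.87 without oviduct library 2. The second had 0 and 0 against 27 and 18, which is at least 13.05-fold higher in the uterus when the oviduct is set to a floor of 3 counts over both libraries. Hoxd12 (1 and 0 against 7 and 9 UMIs), Hoxd1 (0 and 0 against 1 and 5) and Hoxd13 (0 and 0 against 0 and 2) were not tested because of their low counts, though Hoxd12 was called (-3.55) when no filter was used.

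In the classes along the vessels and on the surface, the posterior members differed between the organs and the middle ones did not pass the test. In pericytes, the contractile cells that wrap small vessels, 3 of 4 tested members were higher in the uterus, against 1.84% of all genes. Among these, Hoxd10 passed the filter on low counts only through the uterus, so its call adds no support to that count. Hoxd11 had 10.4 and 15.4 CPM in the oviduct and 102 and 80.7 CPM in the uterus (-2.89 ± 0.20, adjusted p = 2.86e-07). Hoxd10 (-2.33 ± 0.31) and Hoxd9 (-1.72 ± 0.19) were also called. Hoxd8 had 12.04 and 19.2 CPM against 14.1 and 10.7 CPM; these libraries overlapped, and the difference of 0.26 ± 0.30 had an adjusted p of 0.743. The summed level was 55.3 ± 6.57 CPM in oviduct pericytes and 198 ± 32.0 CPM in uterine ones.
In mesothelium 3 of 6 members were higher in the uterus, against 3.35% of all genes. With no filter on low counts, 3 members that the filter had left out (the second Hoxd4 identifier, Hoxd12 and Hoxd13) were called higher in the uterus. Hoxd12 had 0 and 0 UMIs in the oviduct against 2 and 2 in the uterus, and Hoxd13 had 1 and 0 against 1 and 5. The share of all genes called without the filter is not given here, so these 3 calls add no support. Hoxd11 had 17.2 and 14.2 CPM against 194 and 196 CPM (-3.61 ± 0.14, adjusted p = 1.44e-07), Hoxd10 -2.97 ± 0.19 and Hoxd9 -1.81 ± 0.22. Hoxd8 had 19.5 and 21.1 CPM against 29.8 and 26.1 CPM, without overlap, but the difference of -0.45 ± 0.18 had an adjusted p of 0.16. Uterine mesothelium had only 80 and 62 cells, and free RNA (RNA of broken cells that is caught with every cell, measured in droplets without one) could supply up to 43.0% and 19.2% of its Hoxd9 counts and 15.6% and 6.69% of its Hoxd11 counts. Its part in the Hoxd9 difference was not tested beyond subtracting that amount, after which the call remained. Hoxd3 (-0.73 ± 0.46, adjusted p = 0.416) and the first Hoxd4 identifier (-1.61 ± 0.86, adjusted p = 0.321) did not pass the test.

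Blood endothelium had another mix of members. Hoxd8 and Hoxd9 were the leading members there in both organs, and the summed level was 181 ± 14.5 CPM in the oviduct and 287 ± 2.83 CPM in the uterus. Of 6 tested members 3 were higher in the uterus, against 0.700% of all genes. Among these, Hoxd11 passed the filter on low counts only through the uterus, so its call adds no support to that count. Hoxd8 had 86.8 and 80.8 CPM in the oviduct and 90.5 and 91.4 CPM in the uterus. The uterine libraries were slightly above the oviduct ones, and the difference of -0.09 ± 0.14 had an adjusted p of 0.892, which does not show that the levels were alike. Hoxd9 had 79.3 and 74.6 CPM against 138 and 130 CPM (-0.77 ± 0.14, adjusted p = 0.0039). This call was lost without uterus library 1, while the difference was -0.76. Hoxd10 had 14.5 and 6.998 CPM against 42.0 and 49.0 CPM (-1.99 ± 0.23, and -2.69 without oviduct library 1). Hoxd11 had 5 and 0 UMIs against 30 and 47 (-3.71 ± 0.56, adjusted p = 0.000563), but free RNA could supply up to 93.1% and 87.9% of those uterine counts. The Hoxd11 value was -2.97 without oviduct library 2 and -8.13 without oviduct library 1, where the oviduct was left with 0 UMIs. Hoxd3 (23 and 18 against 23 and 18 UMIs) had a difference of 0.16 ± 0.37 and an adjusted p of 0.935, and the second Hoxd4 identifier one of -0.16 ± 0.56 and 0.959.

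Epithelium held little HoxD RNA, with 20.7 ± 3.77 CPM in the oviduct and 19.6 ± 20.3 CPM in the uterus for the sum. Its median depths were 7025 and 4666 UMIs per cell in the oviduct but 3754 and 1614 in the uterus. Only Hoxd8 passed the filter on low counts, and it was called, higher in the oviduct, as were 14.1% of all genes tested. It passed through its oviduct counts alone, so the call is no independent support. It had 94 and 173 UMIs in the oviduct against 1 and 2 in the uterus, a ratio of 19.6 (oviduct over uterus) with a counting interval of 6.62 to 95.4. The log2 difference was 4.35 ± 0.54 (adjusted p = 3.7e-05). Free RNA could supply up to 100% and 96.7% of the uterine counts, but only 4.32% and 1.83% of the oviduct counts. The antisense gene Hoxd3os1, which lies opposite Hoxd8, had 129 and 123 UMIs in the oviduct against 1 and 0 in the uterus (log2 difference 5.79 ± 0.64). The strand setting is not stated, and whether reads of 1 gene entered the counts of the other was not tested. Hoxd9 (14 and 6 against 18 and 2 UMIs) and Hoxd11 (12 and 5 against 21 and 3) overlapped between organs, and free RNA could supply most of the uterine counts of both, from 60.1% to 100%. With no filter on low counts both were called higher in the uterus (log2 differences, oviduct minus uterus, of -2.07 and -2.56), although uterus library 2 had only the 2 and 3 UMIs given above. The count of members called higher in the uterus, 0 here, was 3 with doublets kept and moved with 1 library left out. The share of all genes called in that direction is not given here, so these counts are no result about the members.
Oviduct epithelium fell into 3 clusters. One of them, with 82 and 144 cells, had no uterine cells and held Hoxd8 at 14.2 and 19.97 CPM. Its cells had a median of 31428 UMIs, against 1665 and 2635 in the remaining clusters. The other 2 were shared by both organs: in the first, Hoxd8 was at 4.47 and 18.0 CPM in the oviduct and 0 and 11.7 CPM in the uterus, and in the second at 5.02 and 0 CPM against 0.715 and 0 CPM. In these shared clusters the organs overlapped, and no library had more than 9 Hoxd8 UMIs.
The other members were rare in pericytes, mesothelium, blood endothelium and epithelium, and were left out of the test by the filter on low counts. Hoxd12 had 0 to 2 UMIs per library in them, Hoxd13 0 to 5 and Hoxd1 0 to 12. Hoxd3 had 4 and 1 UMIs in oviduct pericytes against 8 and 6 in uterine ones, and 11 and 15 against 5 and 0 in epithelium. Hoxd10 had 2 and 2 against 3 and 4 in epithelium. The first Hoxd4 identifier had 10 and 6 UMIs against 4 and 7 in blood endothelium, where its oviduct levels of 1.99 and 1.75 CPM were above the uterine 1.02 and 1.29 CPM. Either Hoxd4 identifier had 0 to 10 UMIs per library in the pericytes and epithelium, and the second had 10 and 4 against 7 and 2 in mesothelium.

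**Figure D2:**
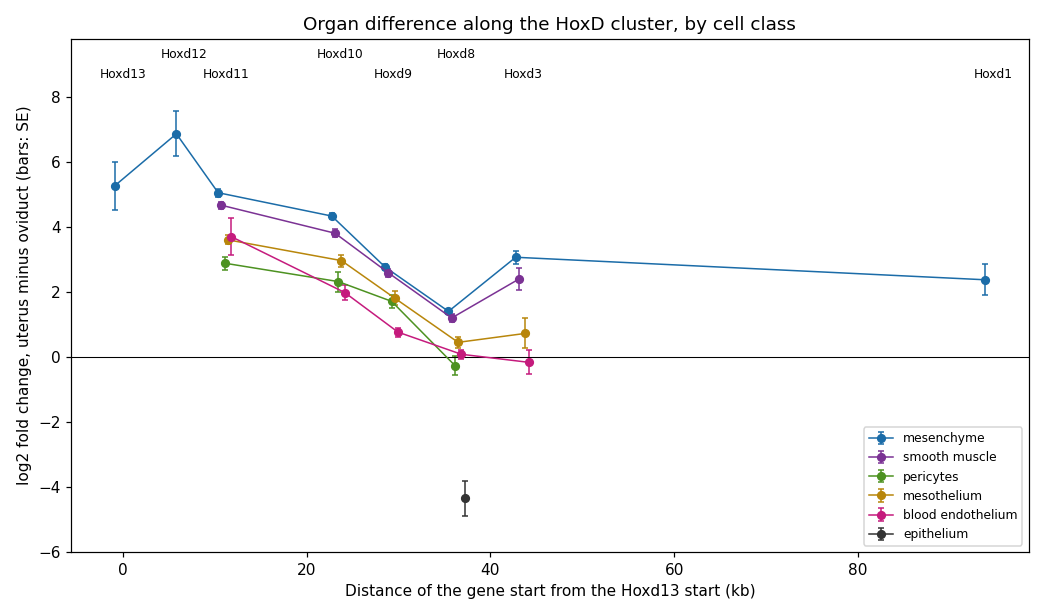
Difference between the organs along the cluster, by cell class. The y axis is the log2 fold change turned to uterus minus oviduct (bars: standard error) and the x axis the distance of the gene start from the start of Hoxd13 in kb; points of different classes are shifted slightly sideways, the Hoxd12 and Hoxd13 values rest on 1 oviduct UMI each, and members not tested in a class and both Hoxd4 features are left out. From Hoxd11 to Hoxd8 the values fall in each of the 5 classes in which these genes were tested, and the single epithelial point (Hoxd8) is below 0.

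The order of the organ difference along the chromosome repeated in 5 classes. From Hoxd11 through Hoxd10 and Hoxd9 to Hoxd8, whose starts lie 11.2 and 36.3 kb from the start of Hoxd13, the log2 difference went from -5.06 to -1.41 in mesenchyme, from -4.68 to -1.20 in smooth muscle, from -2.89 to 0.26 in pericytes, from -3.61 to -0.45 in mesothelium and from -3.71 to -0.09 in blood endothelium. The endothelial Hoxd11 value is the one that ran from -8.13 to -2.97 with 1 library left out and whose uterine counts free RNA could largely supply. The 5 classes come from the same 4 libraries and are not independent of each other. At Hoxd3, 3′ of Hoxd8, the difference was -3.07 in mesenchyme, -2.40 in smooth muscle and -0.73 in mesothelium, each further from 0 than that of Hoxd8, while in blood endothelium it was 0.16 and in pericytes Hoxd3 was not tested. The balance of the members differed as well. Hoxd11 made up 18.2% and 23.3% of the HoxD UMIs in oviduct mesenchyme and 54.5% and 53.6% in uterine mesenchyme, and Hoxd8 28.8% and 29.9% against 6.004% and 6.16%. In smooth muscle Hoxd11 made up 21.1% and 21.0% against 52.9% and 52.4%. In blood endothelium Hoxd8 made up 45.4% and 47.3% against 31.3% and 32.0%, and Hoxd11 0.520% and 0% against 2.64% and 3.04%.

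The share of cells with a Hoxd11 UMI was set beside the summed level. In mesenchyme it was 3.65% and 4.55% of the oviduct cells and 90.5% and 89.4% of the uterine cells. When each cell was thinned to 2000 UMIs the shares were 1.13% and 1.51% against 44.8% and 43.3%. In smooth muscle the thinned shares were 0.439% and 1.06% against 33.5% and 27.8%. Myeloid cells, a blood-derived class, served as a class that should lack the gene. They had a Hoxd11 UMI in 0 of 34 and 0 of 20 oviduct cells and in 1 of 13 and 1 of 7 uterine cells, at median depths of 17343 to 28945 UMIs against 11578 to 15589 in mesenchyme. Uterine erythroid cells, which should also lack it, had one in 59.0% and 53.4% of cells, and free RNA could supply up to 82.0% and 92.0% of those counts; in uterine mesenchyme it could supply 2.86% and 2.12%. Cells with UMIs of at least 2 HoxD genes made up 7.01% and 7.06% of oviduct mesenchyme and 85.9% and 87.4% of uterine mesenchyme.

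Mesenchyme was not uniform in the oviduct. Hoxd11 was at 0 to 0.734 CPM in 4 of its clusters (numbers 0, 3, 15 and 20), which held 1081 and 719, 650 and 679, 407 and 208, and 228 and 161 cells. In clusters 6 and 7 it was at 9.78 and 13.9 CPM and 5.06 and 3.76 CPM. In cluster 8 it reached 170 and 139 CPM in the oviduct cells, beside 199 and 187 CPM in the uterine cells of that cluster. Cluster 17 had 107 and 112 CPM against 228 and 205 CPM, cluster 11 had 37.2 and 69.4 CPM against 290 and 259 CPM, and cluster 10 had 12.5 and 25.8 CPM against 122 and 131 CPM. These 4 clusters, the ones with at least 20 cells in every library, held 12.9% and 12.3% of the oviduct mesenchymal cells but 58.6% and 60.2% of their Hoxd11 UMIs. In the uterus the clusters held 40.3% and 45.7% of the cells and 27.9% and 33.0% of the UMIs. Hoxd11 was higher in the uterine libraries than in the oviduct libraries in each of the 4, with no test made. The 3 clusters with at least 20 cells only in the uterine libraries (1, 18 and 21) were at 305 to 445 CPM.
Hoxd8 and Hoxd9 did not keep 1 direction over the 4 clusters. The cluster values of Hoxd10 and of the 3′ genes are not given here, so nothing is said of their direction. Hoxd8 was at 17.6 and 17.0 CPM in the oviduct cells of cluster 8 beside 20.6 and 18.7 CPM in the uterine ones, and at 49.5 and 32.7 CPM in the oviduct cells of cluster 17 beside 23.5 and 23.1 CPM. In cluster 10 it was at 12.04 and 12.11 CPM against 24.2 and 14.5 CPM, and in cluster 11 at 15.5 and 11.4 CPM against 32.3 and 33.3 CPM. Its oviduct libraries were thus above the uterine ones in cluster 17 and below them in the other 3. Hoxd9 was higher in the oviduct libraries in cluster 17, at 168 and 163 CPM against 129 and 110 CPM, and in cluster 8, at 69.0 and 60.4 CPM against 57.5 and 55.0 CPM. It was lower in them in cluster 10, at 39.4 and 36.9 CPM against 68.5 and 68.9 CPM, and in cluster 11, at 45.0 and 56.9 CPM against 95.6 and 81.5 CPM. No test was made of these cluster values, and cluster 17 rested on 29 and 26 oviduct cells. Smooth muscle split in the same way, with Hoxd11 at 0.330 and 0.457 CPM in cluster 5, which held 643 and 529 oviduct cells, and at 212 to 213 CPM in the uterine cells of cluster 2. The 33 cells of oviduct library 2 in cluster 2 were at 123 CPM, and the 30 cells of oviduct library 1 in cluster 27 were at 77.99 CPM. Among clusters that took no class name, cluster 9 had Hoxd11 at 10.3 and 12.9 CPM in the oviduct against 193 and 230 CPM in the uterus.

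**Figure D3:**
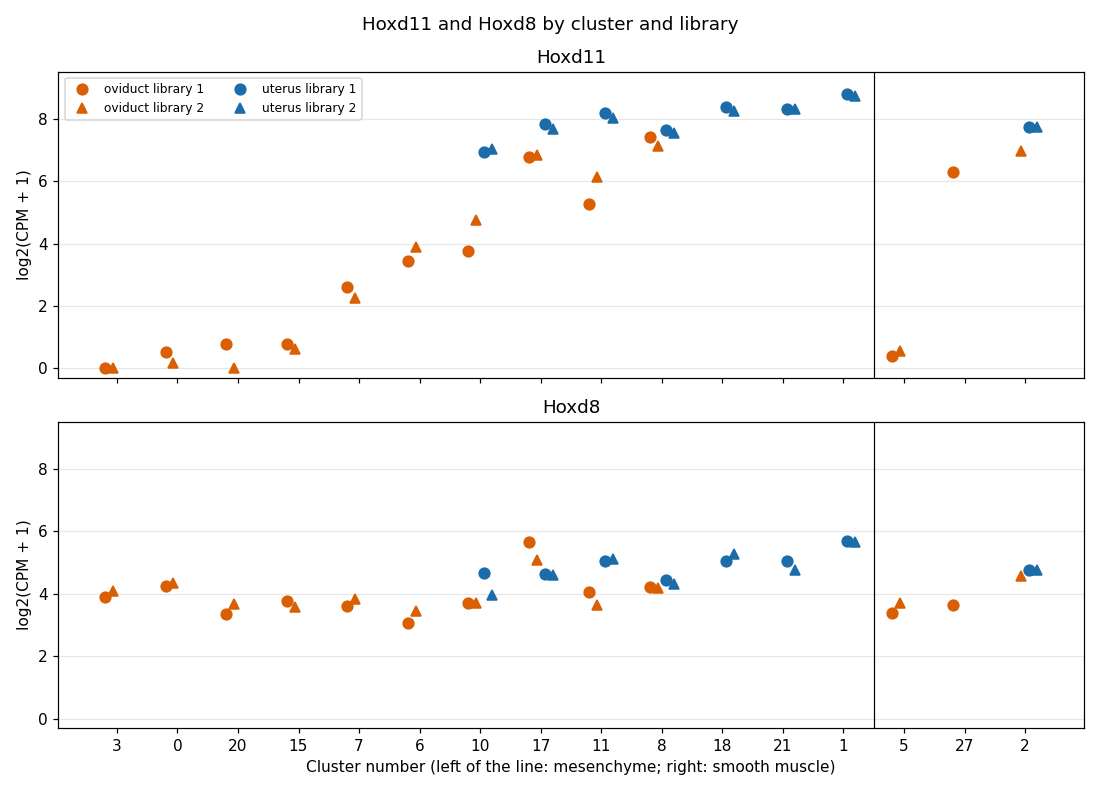
Hoxd11 (top) and Hoxd8 (bottom) by cluster, as log2(CPM + 1), with 1 point per library holding at least 20 cells (oviduct orange, uterus blue). Clusters are ordered by mean Hoxd11 level within mesenchyme (left of the line) and smooth muscle (right). Hoxd11 in oviduct cells runs from 0 to 170 CPM over the mesenchymal clusters.

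The classes were then set against mesenchyme in 1 model of all sums, in which 7 HoxD features were tested. In the uterus, mesenchyme was the class richest in HoxD RNA. Against it, 7 of 7 members were called in epithelium (background 53.0% of genes), 4 of 7 in blood endothelium (60.4%), 5 of 7 in mesothelium (41.6%), 5 of 7 in pericytes (28.7%) and 4 of 7 in smooth muscle (22.0%). The share called was near the background in blood endothelium and above it in the other classes, but every class lost calls under at least 1 alternative. In smooth muscle 3 of the 4 calls (Hoxd8, Hoxd9 and Hoxd11) were lost with DESeq2 or with doublets kept. In mesothelium the calls of Hoxd3, Hoxd8 and Hoxd11 were lost under at least 1 alternative, and in pericytes and blood endothelium that of Hoxd3. In epithelium those of both Hoxd4 features were, which rested on 0 and 0 and on 1 and 0 uterine UMIs. All 25 calls but 1 were lower than in mesenchyme. The exception was Hoxd8 in blood endothelium, which was higher by 1.22 ± 0.11 on the log2 scale. Hoxd11 was lower by log2 differences of -5.71 ± 0.27 in epithelium, -5.39 ± 0.21 in blood endothelium, -1.86 ± 0.16 in pericytes, -0.90 ± 0.15 in mesothelium and -0.51 ± 0.13 in smooth muscle. The difference in epithelium was -7.93 without uterus library 1 and -4.79 without uterus library 2. With DESeq2 the difference in smooth muscle was -0.49 (adjusted p = 0.697) and that in mesothelium -0.84 (adjusted p = 0.292).
In the oviduct, 7 of 7 members were called in blood endothelium (background 62.3%), 5 of 7 in epithelium (70.3%), 5 of 7 in mesothelium (58.8%), 1 of 7 in pericytes (35.8%) and 0 of 7 in smooth muscle (25.4%). The share in epithelium was near the background, and those in pericytes and smooth muscle were below it. Each mesothelial call was lost or reversed under at least 1 alternative (the first Hoxd4 identifier under 4 and Hoxd11 under 5), and the call in pericytes, of the second Hoxd4 identifier, was lost under 7. In blood endothelium Hoxd8 was higher than in mesenchyme by 2.57 ± 0.11, Hoxd9 by 2.18 ± 0.15 and Hoxd10 by 0.98 ± 0.19, and Hoxd11 was lower (-4.04 ± 0.55). The Hoxd11 value was -3.09 without oviduct library 2 and -9.83 without oviduct library 1, which left 0 UMIs. The second Hoxd4 identifier, higher by 3.01 ± 0.56, was at 2.08 without oviduct library 1 and lost its call. The Hoxd10 call was lost without oviduct library 1 (log2 difference 0.29) and with at least 1000 genes per cell (log2 difference 0.19). In epithelium Hoxd9, Hoxd10 and Hoxd11 were lower by log2 differences of -3.66 ± 0.31, -4.36 ± 0.40 and -3.14 ± 0.37, while the calls of Hoxd8 (0.30 ± 0.13) and Hoxd3 (0.87 ± 0.37) were lost under most alternatives. Without oviduct library 1 Hoxd9 was at -4.39 and Hoxd11 at -4.18, and without oviduct library 2 Hoxd11 was at -2.33.

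**Figure D4:**
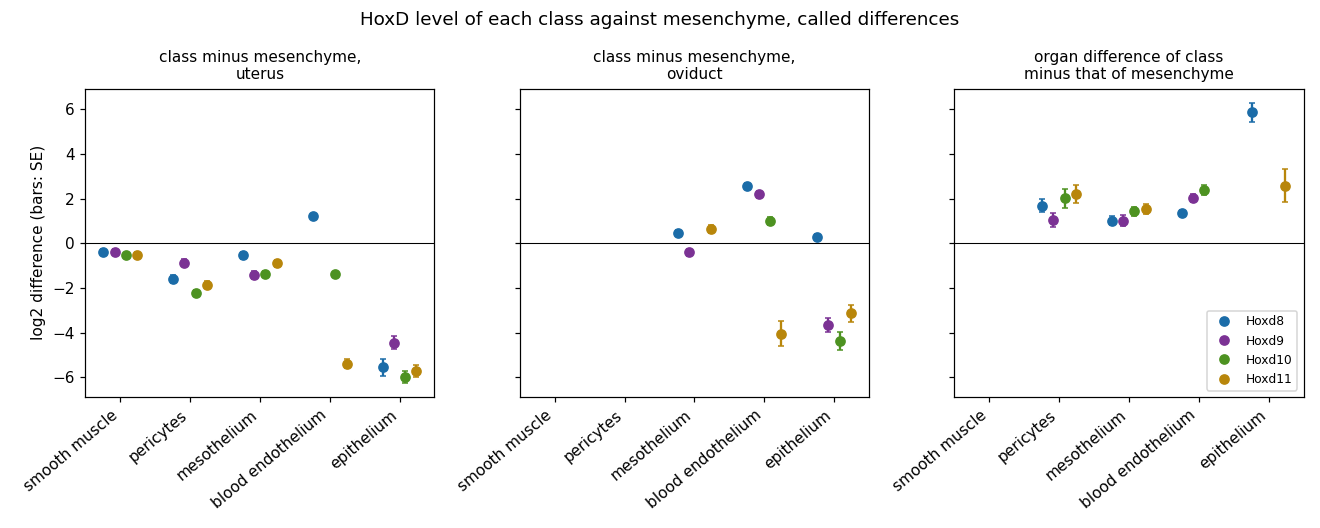
Called differences of Hoxd8, Hoxd9, Hoxd10 and Hoxd11 between each class and mesenchyme, on the log2 scale with standard error bars: in the uterus (left), in the oviduct (middle), and the organ difference of the class minus that of mesenchyme (right). Differences that were not called are not drawn; in the uterus Hoxd8 in blood endothelium is the single called point above 0.

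The organ difference itself was compared with that in mesenchyme as an interaction. It was called for 6 of 7 members in blood endothelium (background 10.5% of genes), 5 of 7 in mesothelium (17.3%), 4 of 7 in pericytes (6.64%), 3 of 7 in epithelium (23.8%) and 0 of 7 in smooth muscle (5.13%). All 18 called values were positive, which means that the excess in the uterus was smaller than in mesenchyme or was turned round. Of these, 10 kept direction and call under all alternatives run, and 8 lost the call or reversed under at least 1. In blood endothelium the values were 1.35 ± 0.15 for Hoxd8, 2.02 ± 0.20 for Hoxd9 and 2.38 ± 0.22 for Hoxd10 (1.67 without oviduct library 1). In epithelium the value was 5.86 ± 0.43 for Hoxd8, on 1 and 2 uterine UMIs, of which free RNA could supply up to 100% and 96.7%. The epithelial value of Hoxd3, like that of Hoxd8 among the 10 kept, rested on 5 and 0 uterine UMIs. In pericytes the values were 1.68 ± 0.30 for Hoxd8 and 2.18 ± 0.40 for Hoxd11 (not called with DESeq2, adjusted p = 0.13), and in mesothelium 1.01 ± 0.20 for Hoxd8 and 1.52 ± 0.23 for Hoxd11. Of the 5 called mesothelial values, 3 turned negative with at least 1000 genes per cell, to -0.78 for Hoxd9, -1.15 for Hoxd10 and -0.87 for Hoxd11, all called. In smooth muscle Hoxd11 had 0.38 ± 0.26 and Hoxd10 0.51 ± 0.21, neither called, but with doublets kept Hoxd9, Hoxd10 and Hoxd11 had called values of -0.90, -1.44 and -2.02. The oviduct classes held other numbers of cells in those alternatives. With doublets kept, mesenchyme had 3060 and 2225 and smooth muscle 1696 and 1398 oviduct cells, and with at least 1000 genes per cell 2865 and 2065, and 864 and 655. Whether this lies behind the reversals was not tested.

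The paralogues of the HoxD genes in the other 3 clusters did not all move with them. Of the paralogues in groups 9 to 13, 4 of 7 tested in mesenchyme were higher in the uterus and 2 were higher in the oviduct, where 20.4% and 22.9% of all genes were, with a median log2 difference of -2.68 against 0.00 for all genes. Hoxa11, which the uterine stroma needs for pregnancy, had 2.69 and 3.61 CPM in oviduct mesenchyme and 147 and 137 CPM in uterine mesenchyme (-5.54 ± 0.12). Hoxc11 had 0.178 and 0.310 CPM against 9.09 and 9.02 CPM (-5.29 ± 0.22). In the other direction, Hoxc9 had 42.4 and 42.9 CPM against 3.57 and 3.54 CPM (3.55 ± 0.094), and Hoxc10 had 32.6 and 29.2 CPM against 12.2 and 14.6 CPM (1.17 ± 0.11). The uterine libraries did not overlap the oviduct ones for any of these 4 genes. They were named as the largest called changes of the list, so this separation adds no support. In smooth muscle the counts were 4 and 2 of 7 (15.3% and 17.9% of all genes), with Hoxa11 at -5.23 ± 0.14 and Hoxc9 at 4.13 ± 0.16.
Of the paralogues in groups 1, 3, 4 and 8, 6 of 8 tested in mesenchyme had the higher level in the oviduct (22.9% of all genes), 0 had it in the uterus (20.4%), and the median was 2.16. Hoxc8 had 197 and 194 CPM against 5.55 and 4.31 CPM (5.28 ± 0.11), while its paralogue Hoxd8 was higher in the uterus. Hoxc4 had 39.99 and 39.3 CPM against 3.15 and 3.24 CPM (3.60 ± 0.10). In smooth muscle 5 of 6 were higher in the oviduct, against 17.9% of all genes, led by Hoxc8 (5.74 ± 0.12) and Hoxc4 (4.06 ± 0.20).

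Of the genes beside and within the cluster, 4 of 7 tested in mesenchyme and 3 of 7 in smooth muscle were higher in the uterus, against 20.4% and 15.3% of all genes, and 0 were higher in the oviduct in either class. Hoxd3os1 had 10.7 and 11.9 CPM against 25.9 and 26.4 CPM in mesenchyme (-1.25 ± 0.089). Mtx2, a gene of mitochondrial import that lies beyond Hoxd1, had 69.0 and 69.3 CPM against 89.0 and 95.9 CPM (-0.45 ± 0.080). These differences were smaller than those of Hoxd9 to Hoxd11 by size, with no test of that comparison. Of the Hox cofactors, which bind DNA together with Hox proteins, 3 of 9 were higher in the uterus and 3 in the oviduct in mesenchyme, against 20.4% and 22.9% of all genes here and in the next 3 lists. Meis2 had a log2 difference of -0.79 ± 0.075. Of 22 Polycomb genes, which keep Hox genes silent, 3 were higher in the uterus and 5 in the oviduct in mesenchyme, where Jarid2 had -0.57 ± 0.082. Of 9 trithorax-group and H3K27 demethylase genes, which act against that silencing, 5 were higher in the uterus and 2 in the oviduct, and of 6 tested upstream factors of posterior Hox genes 1 and 2 were. For Polycomb, both shares were near or below that background. The lists' medians were 0.04 for the cofactors, 0.03 for Polycomb, -0.29 for the trithorax group and -0.11 for the upstream factors, against 0.00 for all genes.

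Across the 24 sums of 6 classes and 4 libraries, the level of Hoxd11 on the scale of log2(CPM + 1) ran closest to Hoxa11 (Pearson r = 0.93) and Hoxa10 (0.92) among Hox genes, and to Tcf21 (0.93), a mesenchymal transcription factor, and Rorb (0.93) among other genes. For Hoxd8 the closest were Selenop (0.88) and, within the cluster, Hoxd3os1 (0.83). For Hoxd10 the closest Hox gene was Hoxd9 (0.89). Tcf21 was itself among the markers that named mesenchyme, so its place here is not independent of the classes. The sums share libraries and classes, so that these values only describe which profiles were alike.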

How the data were processed

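Single-cell RNA of 2 oviduct and 2 uterine libraries was used. Per the labels' protocols these are 10x Chromium 3′ v3.1 libraries, and the deposited values are raw UMI counts per gene and barcode. Per the file headers they come from Cell Ranger (6.0.1 for called cells, 4 for all barcodes), and the submitters' processing notes name mm10 and Seurat 4.2.3. Annotation, strand setting and use of intronic reads: not given in the sources used here.

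Cells needed 500 detected genes, with mitochondrial UMIs at 15% or below, and the barcodes with the highest doublet scores were removed (0.8% per 1000 barcodes). Clusters were cut without Hox genes (scanpy 1.11.5, leidenalg 0.10.2; 2000 variable genes, 30 components, 15 neighbours, resolution 1) and named from marker lists, and a cell had to carry at least 3 markers of its class. The minimum naming score (0.45), the use of summed counts and the lists behind the free-RNA bound were set after clusters had been seen. A class needed 20 cells in every library. Sums per library and class were tested with edgeR 4.0.16 (R 4.3.3; TMM, filterByExpr, quasi-likelihood, 2-sided), and genes were called where the p adjusted by Benjamini-Hochberg over every gene in the test was under 0.05. Organ differences used organ alone as the term; class differences used 1 model of all sums with a term for each library. Total UMIs per library ran from 61117726 to 114419939. The free-RNA bound is the largest share of a class sum that the profile of uncalled barcodes (at most 100 UMIs) could supply. The test was checked on simulated data, where false calls were above the nominal rate in every class, most in mesenchyme and next in smooth muscle. HoxD genes are named in every class, other lists by their 2 largest called changes per direction in mesenchyme and smooth muscle, and like genes by correlation (some genes these rules name are not reported here); Hoxd3os1 in epithelium, and the choice of clusters and promoters shown, came after their values were seen. Members and lists were chosen with earlier results of these data known. Alternatives were DESeq2 1.42.0, other scaling and filters, other classes, doublets kept, free RNA subtracted, a replicate block and each library left out.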

Additional observations from a re-analysis of the deposited data

Results flagged for a closer look

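The organ difference of a class was tested against that of mesenchyme, and 18 values passed the test; each is a log2 difference of differences (oviduct minus uterus in the class, minus the same in mesenchyme). In blood endothelium the values were 3.24 for Hoxd3, 3.89 and 3.16 for the first and second Hoxd4 features, 1.35 for Hoxd8, 2.02 for Hoxd9 and 2.38 for Hoxd10. In epithelium they were 3.42 for Hoxd3, 5.86 for Hoxd8 and 2.58 for Hoxd11. In mesothelium they were 2.39 for Hoxd3, 1.01 for Hoxd8, 1.01 for Hoxd9, 1.42 for Hoxd10 and 1.52 for Hoxd11. In pericytes they were 1.68 for Hoxd8, 1.04 for Hoxd9, 2.002 for Hoxd10 and 2.18 for Hoxd11. Under the alternatives, 10 of the 18 kept direction and call. Among these 10 are Hoxd3 and Hoxd8 in epithelium, which rested on 5 and 0 and on 1 and 2 uterine UMIs. Of 12 alternatives, the call of Hoxd11 in epithelium was lost under 6, that of Hoxd9 in pericytes under 7, Hoxd10 there under 2 and Hoxd11 there under 1. In mesothelium the call of Hoxd9 was lost under 3 and that of Hoxd11 under 2, and Hoxd9, Hoxd10 and Hoxd11 each reversed under 1. The second Hoxd4 feature in blood endothelium lost its call without oviduct library 1 (2.21). In epithelium Hoxd3 ran from 2.39 (without uterus library 2) to 10.16 (without uterus library 1), and Hoxd11 from 1.51 (without oviduct library 1) to 4.65 (without uterus library 1). What lies behind these values was not tested.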

How the results depend on the processing

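The counts of members that differed between the organs stayed within 1.5 times the reported count under every alternative run, except in mesothelium and epithelium. In mesothelium 6 in place of 3 were higher in the uterus with no filter on low counts, the 3 added ones being members the filter had left out. In epithelium, where 0 were higher in the uterus, 2 were with no filter and 3 with doublets kept, and the count moved with 1 library left out. No share of all genes stands beside these mesothelial and epithelial counts. Of the single organ differences, 430 values under alternatives kept direction and call, which says nothing of their size. The call of Hoxd9 in blood endothelium was lost once, and 4 values reversed, none of them called: with 1 library left out, Hoxd3 in blood endothelium ran from -0.20 to 0.55, the second Hoxd4 feature there from -0.93 to 0.41 (0.23 without oviduct replicate 2) and Hoxd8 in pericytes from -0.031 to 0.58.

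The class differences depended more on the processing. Over all 105 differences tested, called or not, 1086 values under alternatives kept direction and call, 85 lost the call, 15 gained it and 69 reversed; values are printed only for called differences and for Hoxd8 to Hoxd11 in smooth muscle, a restriction made after these counts were seen. With 1 library left out, 18 to 28 differences were called in the uterus (25 with all libraries), 12 to 15 in the oviduct (18) and 14 to 19 interactions (18). DESeq2 called 11 interactions. With at least 1000 genes per cell the mesothelial interactions were -0.78 (Hoxd9), -1.15 (Hoxd10) and -0.87 (Hoxd11), those of smooth muscle -0.13 (Hoxd8), -0.54 (Hoxd9), -0.45 (Hoxd10) and -0.79 (Hoxd11), and Hoxd11 in oviduct mesothelium was -1.81 against mesenchyme (-0.31 by the marker score of each cell alone). With doublets kept the smooth muscle interactions were -0.90 (Hoxd9), -1.44 (Hoxd10) and -2.02 (Hoxd11). Hoxd9 there was -0.22 by the marker score alone and ran from -0.077 to 0.43 with 1 library left out. Hoxd8 in oviduct epithelium against mesenchyme ran from -0.031 to 0.55 in the same way, the low end without oviduct replicate 2. The cause was not tested.

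With the replicate number as a block, the counts of members called between the organs were the same in all 6 classes (10 in mesenchyme, 7 in smooth muscle). The labels do not say that equal numbers mark 1 pool, and the replicate differences of both organs correlated at 0.19 in mesenchyme and 0.12 in smooth muscle but at -0.10 in blood endothelium. The filter on low counts kept Hoxd1, Hoxd12 and Hoxd13 out of the test outside mesenchyme and all members but Hoxd8 out of it in epithelium; without it Hoxd12 and Hoxd13 in mesothelium, Hoxd12 in smooth muscle and Hoxd9 and Hoxd11 in epithelium were called higher in the uterus, on 0 to 21 UMIs per library.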
